A study of Mus musculus with 6 samples.

Results

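The parental NIH3T3 cells of this series are described here by the absolute level of each transcript. They comprised 3 of the 6 libraries, those that the labels give as wild type, and the other 3 libraries were not used. NIH3T3 is an immortal line of fibroblasts derived from mouse embryos. Per the labels, the cells carried the wild-type genotype, received no treatment and were grown in DMEM with penicillin, streptomycin and 10% calf serum. Total RNA was isolated on columns, and 1.5 µg of it entered a SMARTer mRNA-seq preparation. The libraries are numbered 1 to 3. Whether each is a culture of its own is not in the labels, and the spread between them may be technical.

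Fibroblasts build and remodel the connective tissue around them. They secrete collagens, fibronectin and proteoglycans, cross-link and cut these fibres with their own enzymes, and hold on to them through integrins that connect to actin cables. NIH3T3 cells are known for growing without limit while still stopping on contact, for dividing in response to platelet-derived growth factor and serum lipids, and for their ready transformation by activated Ras.

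The libraries held 35511769, 29515072 and 32196873 counts over 35275 genes. Levels are given in CPM, a gene's counts scaled to an equal total in every library, or, where genes are compared with each other, in TPM, which also divides by exonic length. Library 2 stood apart from the other libraries. Across the 10014 genes with a mean of at least 5 CPM, Pearson's correlation of log2(CPM + 1) was 0.995 between libraries 1 and 3, 0.931 between 1 and 2, and 0.926 between 2 and 3. Only 5 of these genes differed over 2-fold between libraries 1 and 3, against 1120 between 1 and 2 and 1216 between 2 and 3. The values of libraries 1 and 3 were not identical, and both are used as the separate samples that the labels give. Since TPM depends on the lengths of all other transcripts, a gene at an equal CPM had a TPM 1.18 times as high in library 2 as in library 1 or 3, and libraries are therefore compared in CPM. Library 2 was over 2-fold above both other libraries for 369 of the genes with at least 5 CPM (3.68%) and over 2-fold below both for 552 (5.51%), and these shares are the background for the counts of genes apart. Since such calls followed transcript length, they were repeated after each ratio had been centred on genes of like length, an alternative chosen after the data were seen, which gave 396 genes higher (3.97%) and 377 lower (3.78%). With 3 libraries of 1 group no test was run, and each value is given per library so that it can be read with and without library 2.

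Of the 35275 genes, 11277 (32.0%) reached 1 CPM in each library, which is here called detected, and 14879 had 0 counts in all 3. Among protein-coding genes, 10745 of 21397 (50.2%) were detected and 7368 (34.4%) had 3 counts or fewer over the 3 libraries. Those 3 counts correspond to 0.0309 CPM over the group and are here called the counting floor. This floor covers counting error only, since the reads carry no molecular identifiers and several can stem from 1 molecule.

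The 15 protein-coding transcripts with the highest mean level per length were led by a translation factor. Eef1a1, which brings aminoacyl-tRNA to the ribosome, stood at 16735, 16612 and 14861 TPM in libraries 1, 2 and 3. The other 14 of the leading 15 were Rplp1, mt-Nd1, Eef2, mt-Co1, Rplp0, Ftl1, Lgals1, Actb, mt-Cytb, S100a4, Ptma, Hsp90ab1, Rpl13a and Rps3a1. Lgals1 encodes galectin-1 and was at 7347, 3414 and 6409 TPM. S100a4, also called fibroblast-specific protein, was at 6389, 1381 and 6419 TPM, ranking 11, 64 and 9 among all genes, so that it was 1 of the leading genes in libraries 1 and 3 and well below them in library 2. The gene Yam1, annotated as a long noncoding RNA, had 10707, 15663 and 5208 CPM and was named after its values were seen. It was highest in library 2 and lowest in library 3, with the other library between them. Whether its counts include reads of near-identical sequence elsewhere was not tested.

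**Figure D1:**
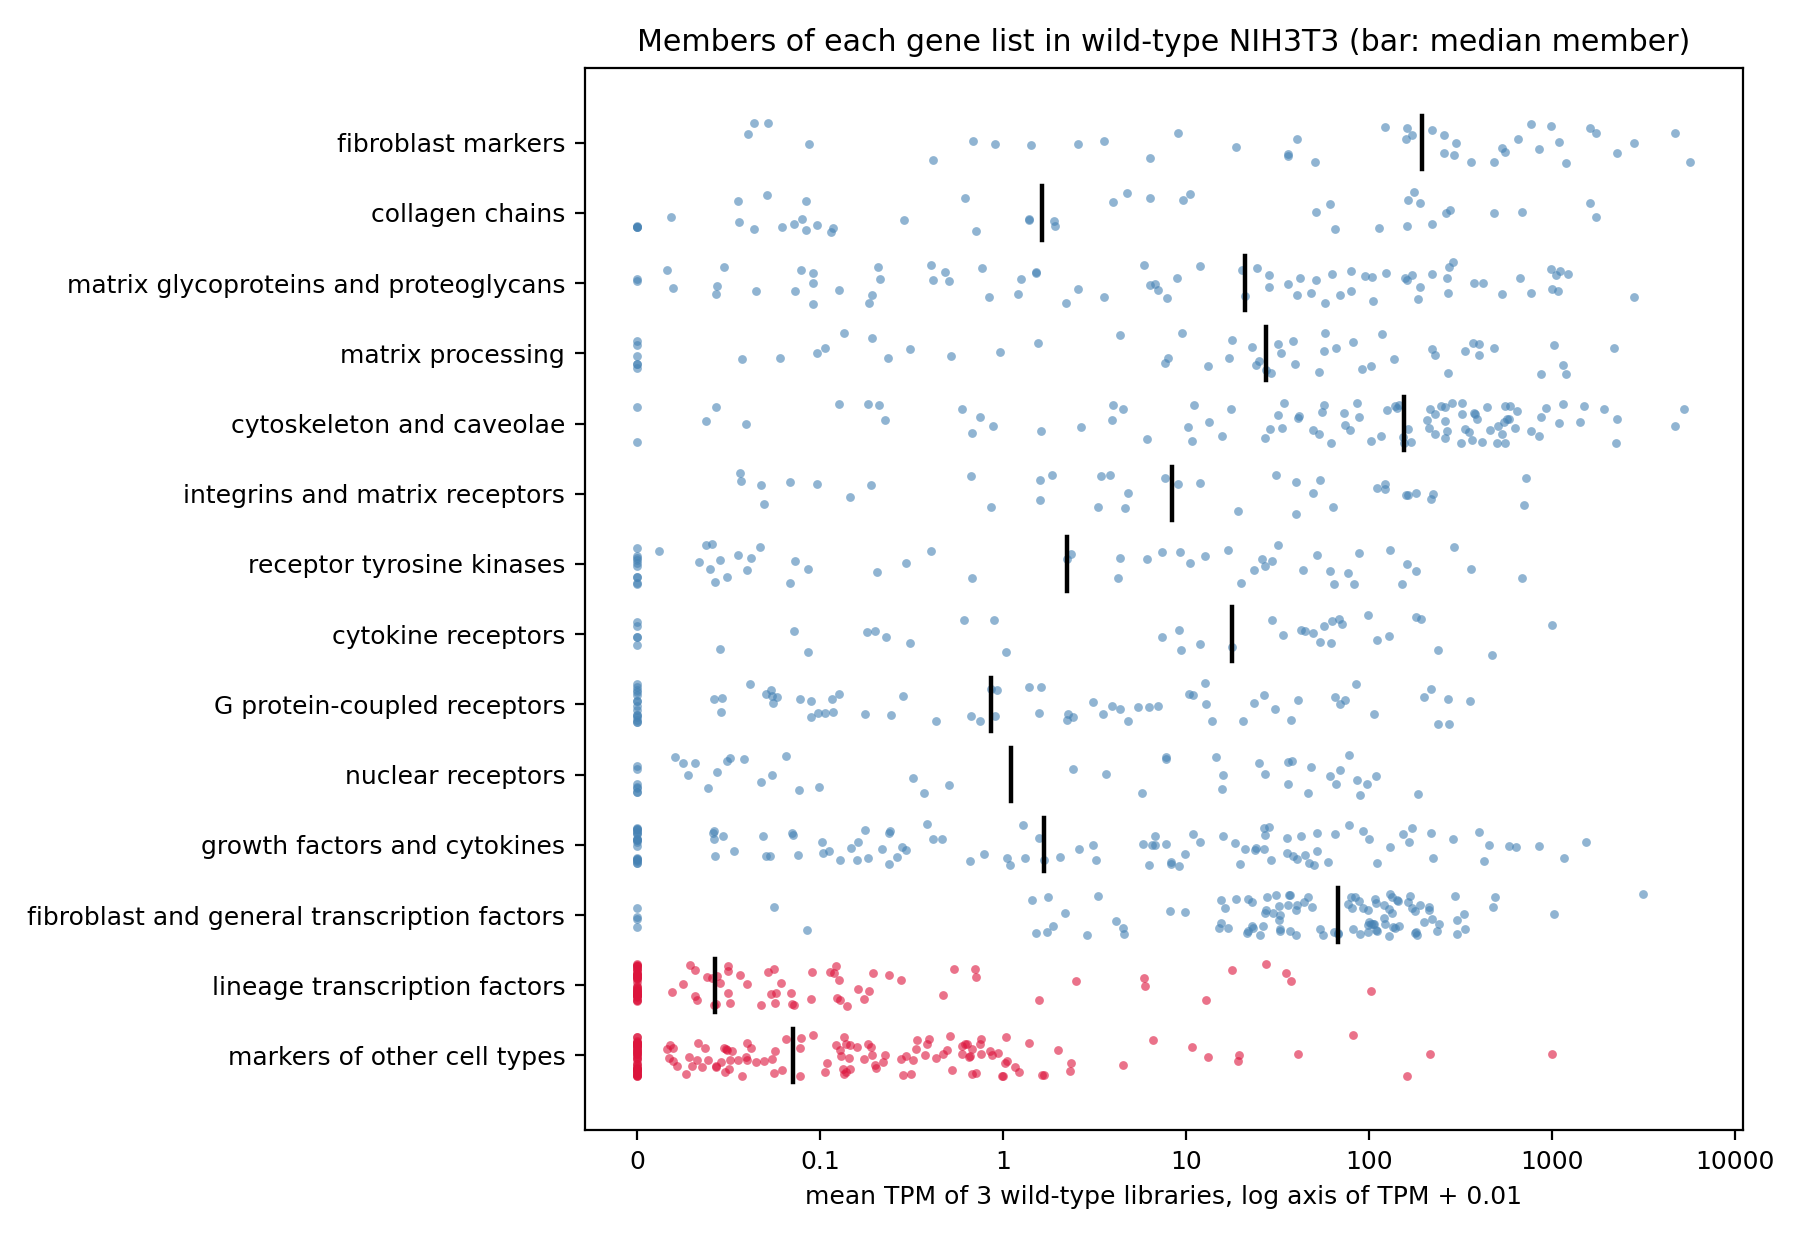
Mean TPM of the 3 wild-type libraries for each member of 14 gene lists, on a log axis of TPM + 0.01, with 1 point per gene and a bar at the median member. Lineage transcription factors and markers of other cell types (red) lie mostly below 1 TPM, while fibroblast markers and general transcription factors (blue) lie mostly above 10 TPM.

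The fibroblast label was checked against a list of markers. Of its 42 genes, 35 (83.3%) were detected, against 50.2% of protein-coding genes, and 0 were at the counting floor, against 34.4%. Without library 2, 36 were detected. The intermediate filament gene Vim stood at 2732, 1599.8 and 2487 TPM, with the lowest value in library 2. Among surface markers, Cd63 had 682, 609 and 680.1 TPM, Pdgfra, a receptor for platelet-derived growth factor, 338, 417 and 326 TPM, and Thy1 327, 231 and 336 TPM. Cd248 (endosialin) stood at 219, 103 and 224 CPM and Ly6a (Sca-1) at 105, 38 and 111 CPM, and both were over 2-fold lower in library 2 than in each other library, though not after centring on length. Pdgfra did not show this gap, at 953, 994 and 918 CPM. The collagen receptor Ddr2 went the opposite way, at 523, 1127 and 440.2 CPM, with library 2 over 2-fold above both, again not after centring. The intracellular markers S100a6 at 1418, 366 and 1483 TPM and Cav1, the main protein of caveolae, at 590.1, 456 and 621 TPM were also abundant.

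Of 44 collagen chain genes, 24 (54.5%) were detected, near the 50.2% of all protein-coding genes. At the floor were 5 (11.4%), against 34.4% of protein-coding genes. The chains of collagen I, the main fibril of skin and bone, led with Col1a1 at 1750.5, 1827 and 1654 TPM and Col1a2 at 1569, 1709.6 and 1553 TPM. Both chains lay close together in the 3 libraries, Col1a1 at 3234, 2852 and 3050.1 CPM and Col1a2 at 5487, 5054 and 5421 CPM. Col3a1 followed at 467, 459 and 524 TPM. The chains of collagen V, which is built into collagen I fibrils, were at 236, 319 and 238 TPM for Col5a1 and 146, 337 and 177 TPM for Col5a2. Collagen VI, which forms beaded filaments near the cell surface, had unequal chains, with Col6a1 at 699, 674 and 683 TPM, Col6a2 at 201, 172 and 195 TPM and Col6a3 at 209, 169.6 and 154 TPM. Basement-membrane chains Col4a1 and Col4a2 were at 137, 207 and 139 TPM and 133, 226 and 134 TPM, while their relative Col4a4 stayed at 0.113, 0.508 and 0.248 CPM. Col16a1, a collagen that associates with fibrils, was at 251, 292 and 292 TPM and Col12a1 at 54.6, 68.6 and 31.5 TPM. Col10a1, the collagen of hypertrophic cartilage, reached only 1.15, 0.813 and 1.52 CPM.

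Beyond collagen, 53 of 79 matrix glycoproteins and proteoglycans (67.1%) were detected, against 50.2% of protein-coding genes. Fn1, the fibronectin that bridges cells to collagen, was the leading member at 2388, 4399.8 and 1699.8 TPM, highest in library 2 and lowest in library 3. The thrombospondins Thbs1 and Thbs2, which modulate adhesion, had 988, 1106 and 1057 TPM and 904, 1433 and 892 TPM. Spp1 (osteopontin) and the collagen-binding Sparc were at 1024, 789 and 1186 TPM and 1110.5, 734 and 1141 TPM, each lowest in library 2. In the basement membrane group, Nid1 (nidogen) led at 1119.8, 1153 and 1072 TPM. The laminin chain Lamc1 was at 302, 703 and 251 TPM and the large proteoglycan Hspg2 (perlecan) at 367, 548 and 214 TPM, and both were highest in library 2 and lowest in library 3. Bgn (biglycan) was the leading small proteoglycan at 1271, 1241 and 1158 TPM, with Dcn (decorin) at 449.7, 679 and 469 TPM and the large Vcan (versican) at 336, 219 and 255 TPM. Elastic-fibre genes were led by Fbln2 at 704, 923 and 676 TPM and Efemp1 at 657, 579 and 785 TPM.

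**Figure D2:**
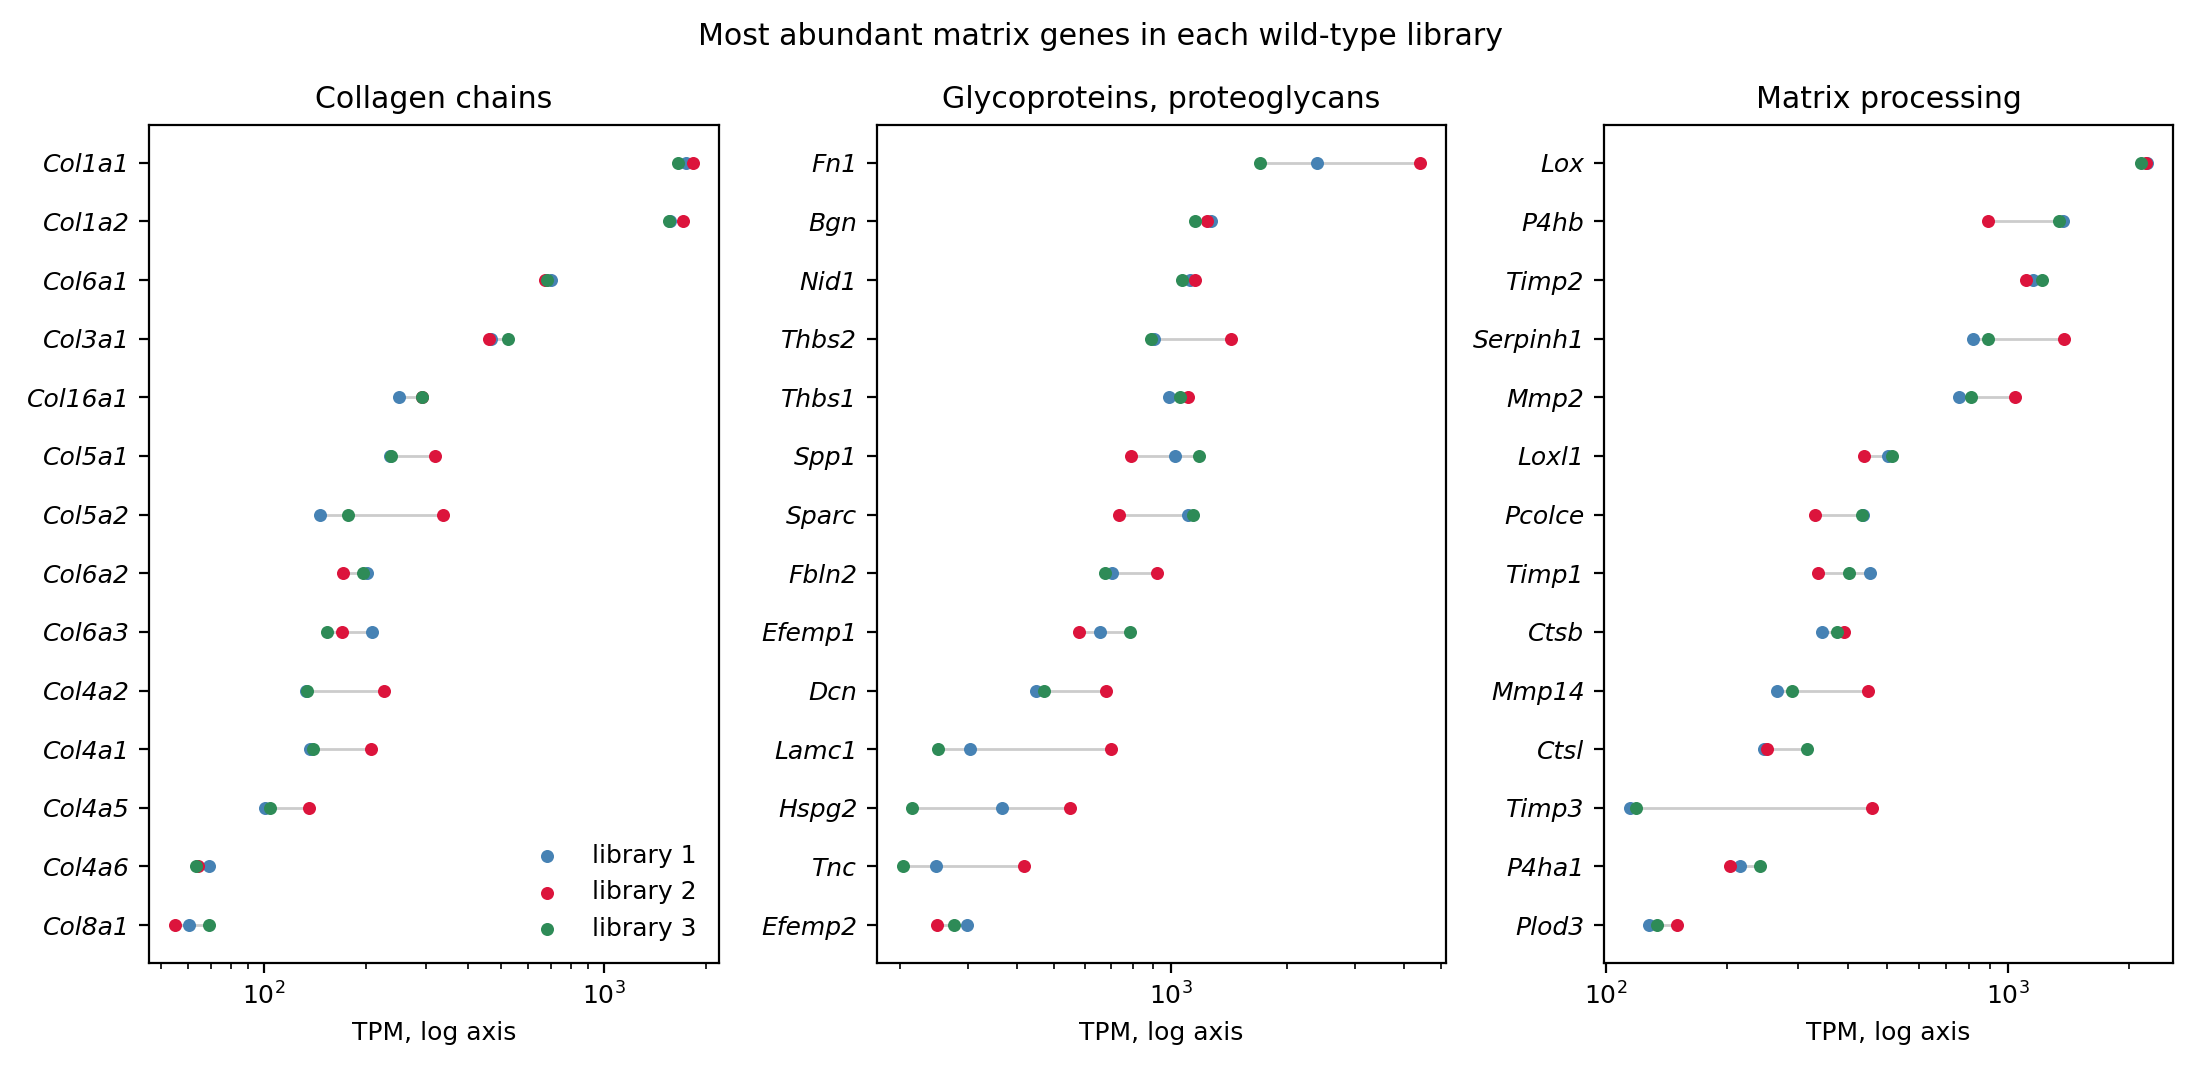
TPM on a log axis of the 14 most abundant collagen chains, matrix glycoproteins and proteoglycans, and matrix-processing genes, with 1 point for each wild-type library. In TPM, Col1a1, Col1a2, Bgn, Nid1, Lox and Timp2 have nearly coinciding points, while Fn1, Lamc1, Hspg2 and Timp3 spread the most, with library 2 highest.

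The enzymes that fold, cross-link and cut this matrix were present together, with 39 of 55 matrix-processing genes (70.9%) detected, against 50.2% of protein-coding genes. Lox, the oxidase that starts collagen and elastin cross-links, was the leading member at 2217, 2202 and 2137 TPM and lay close together in the libraries at 2981, 2504 and 2869 CPM. Serpinh1, the collagen-specific chaperone HSP47, was at 818, 1376 and 889.9 TPM and P4hb, a subunit of prolyl hydroxylase, at 1368, 889 and 1340.0 TPM. Library 2 was the highest for Serpinh1 and the lowest for P4hb. The gelatinase Mmp2 stood at 755, 1043 and 807 TPM and its membrane-bound activator Mmp14 at 266, 448 and 291 TPM. The inhibitor Timp2, which takes part in that activation, was at 1153, 1105 and 1213 TPM and Timp1 at 455, 337 and 403 TPM. Timp3 was the exception among inhibitors, at 263, 887 and 272 CPM, over 2-fold above both other libraries in library 2. After centring on length Timp3 was still above, and 1 other of the 6 inhibitors tested was over 2-fold below both.

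Cytoskeletal genes were detected for 83 of 99 members (83.8%), against 50.2% of protein-coding genes. The cytoplasmic actins Actb and Actg1 stood at 6492, 3697 and 5664 TPM and 2568, 1546 and 2641 TPM. Acta2, the smooth-muscle actin that marks activated fibroblasts, was present at 155, 88.6 and 142 CPM, and the skeletal-muscle actin Acta1 reached 0.253, 0.271 and 0.186 CPM. Among tubulins Tubb5 led at 2363, 1138 and 2313 TPM, followed by Tuba1b at 1860.2, 672 and 1971 TPM. The focal-adhesion protein Zyx was at 295, 495 and 303 TPM, the non-muscle myosin heavy chain Myh9 at 456, 561 and 360.5 TPM and the actin cross-linker Flna at 754, 905 and 648 TPM. Caveola genes included Ptrf (cavin-1) at 1041, 366 and 1196 TPM and Sdpr (cavin-2) at 456, 621 and 534 TPM.

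Of 59 receptor tyrosine kinases, 30 (50.8%) were detected, close to the 50.2% of all protein-coding genes. At the counting floor were 17 (28.8%), against 34.4% of protein-coding genes. Axl, the receptor of Gas6, had the highest level at 591, 860.2 and 609.7 TPM. Pdgfra came next at 338, 417 and 326 TPM, and its paralogue Pdgfrb stood at 152, 194 and 137 TPM, below it in every library. The collagen receptor Ddr2 was at 200.4, 511 and 169 TPM and Ddr1 at 77.2, 109 and 76.8 TPM. Fgfr1 led the fibroblast growth factor receptors at 154, 209.7 and 181 TPM, with Fgfr2 at 13.6, 21.5 and 15.9 TPM and Fgfr3 and Fgfr4 at 0, 0.0339 and 0.0311 CPM and 0.0282, 0.136 and 0 CPM. In the epidermal growth factor class, Erbb2 was at 62.3, 60.5 and 60.8 TPM and exceeded Egfr, at 5.11, 9.27 and 3.96 TPM, in each library, while Erbb4 had 0 counts. The insulin-class receptors Igf1r and Insr were at 29.7, 34.2 and 24.2 TPM and 19.4, 41.3 and 19.9 TPM, and Met, the receptor for hepatocyte growth factor, at 53.4, 83.3 and 55.5 TPM. Receptors of blood and vessel cells were near the floor, with Kit at 0.0563, 0 and 0.0621 CPM, Flt3 at 0, 0.0339 and 0.0311 CPM and Kdr at 0.0563, 0.0339 and 0.0621 CPM. Flt1, a receptor for vascular endothelial growth factor, was the exception in its class at 16.1, 15.4 and 14.1 CPM. Of the 28 members with a mean of at least 5 CPM, Ddr2 and Epha2 were over 2-fold above both other libraries in library 2, Epha2 at 53.4, 170.3 and 70.5 CPM, and 0 were below. After centring on length, Epha2 alone was above.

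Receptors of the TGF-beta superfamily were detected for 13 of 17 genes (76.5%), against 50.2% of protein-coding genes. Tgfbr1 and Tgfbr2, the pair that binds TGF-beta, were at 32.1, 50.9 and 33.6 TPM and 54.9, 57.2 and 57.5 TPM, and the co-receptor Tgfbr3 (betaglycan) exceeded both at 189, 255 and 231 TPM. Among receptors of bone morphogenetic proteins, Bmpr1a had 80.3, 105 and 80.9 TPM and Bmpr2 46.8, 72.9 and 35.9 TPM. The endothelial type 1 receptor Acvrl1 stayed at 0.507, 0.881 and 1.27 CPM. None of the 10 members with at least 5 CPM was over 2-fold apart in library 2. Of all such genes 9.20% were, and 10 members are too few to tell from that share.

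Integrins and other matrix receptors were detected for 28 of 38 genes (73.7%), against 50.2% of protein-coding genes. Itgb1, the beta subunit shared by most collagen and fibronectin receptors, was at 624, 885 and 666 TPM, above Itgb5 at 195, 274 and 183 TPM. Its fibronectin-binding partners Itga5 and Itgav led the alpha subunits at 95.5, 127 and 108 TPM and 48.6, 84 and 58.2 TPM. The collagen-binding subunit Itga11 was low, at 8.79, 18.6 and 8.54 CPM, with library 2 over 2-fold above both others. The heparan sulfate proteoglycans Sdc4 at 689.7, 781 and 630.5 TPM and Gpc1 at 215, 234 and 219.9 TPM were as abundant as leading integrins, and the hyaluronan receptor Cd44 stood at 144, 185 and 151 TPM.

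**Figure D3:**
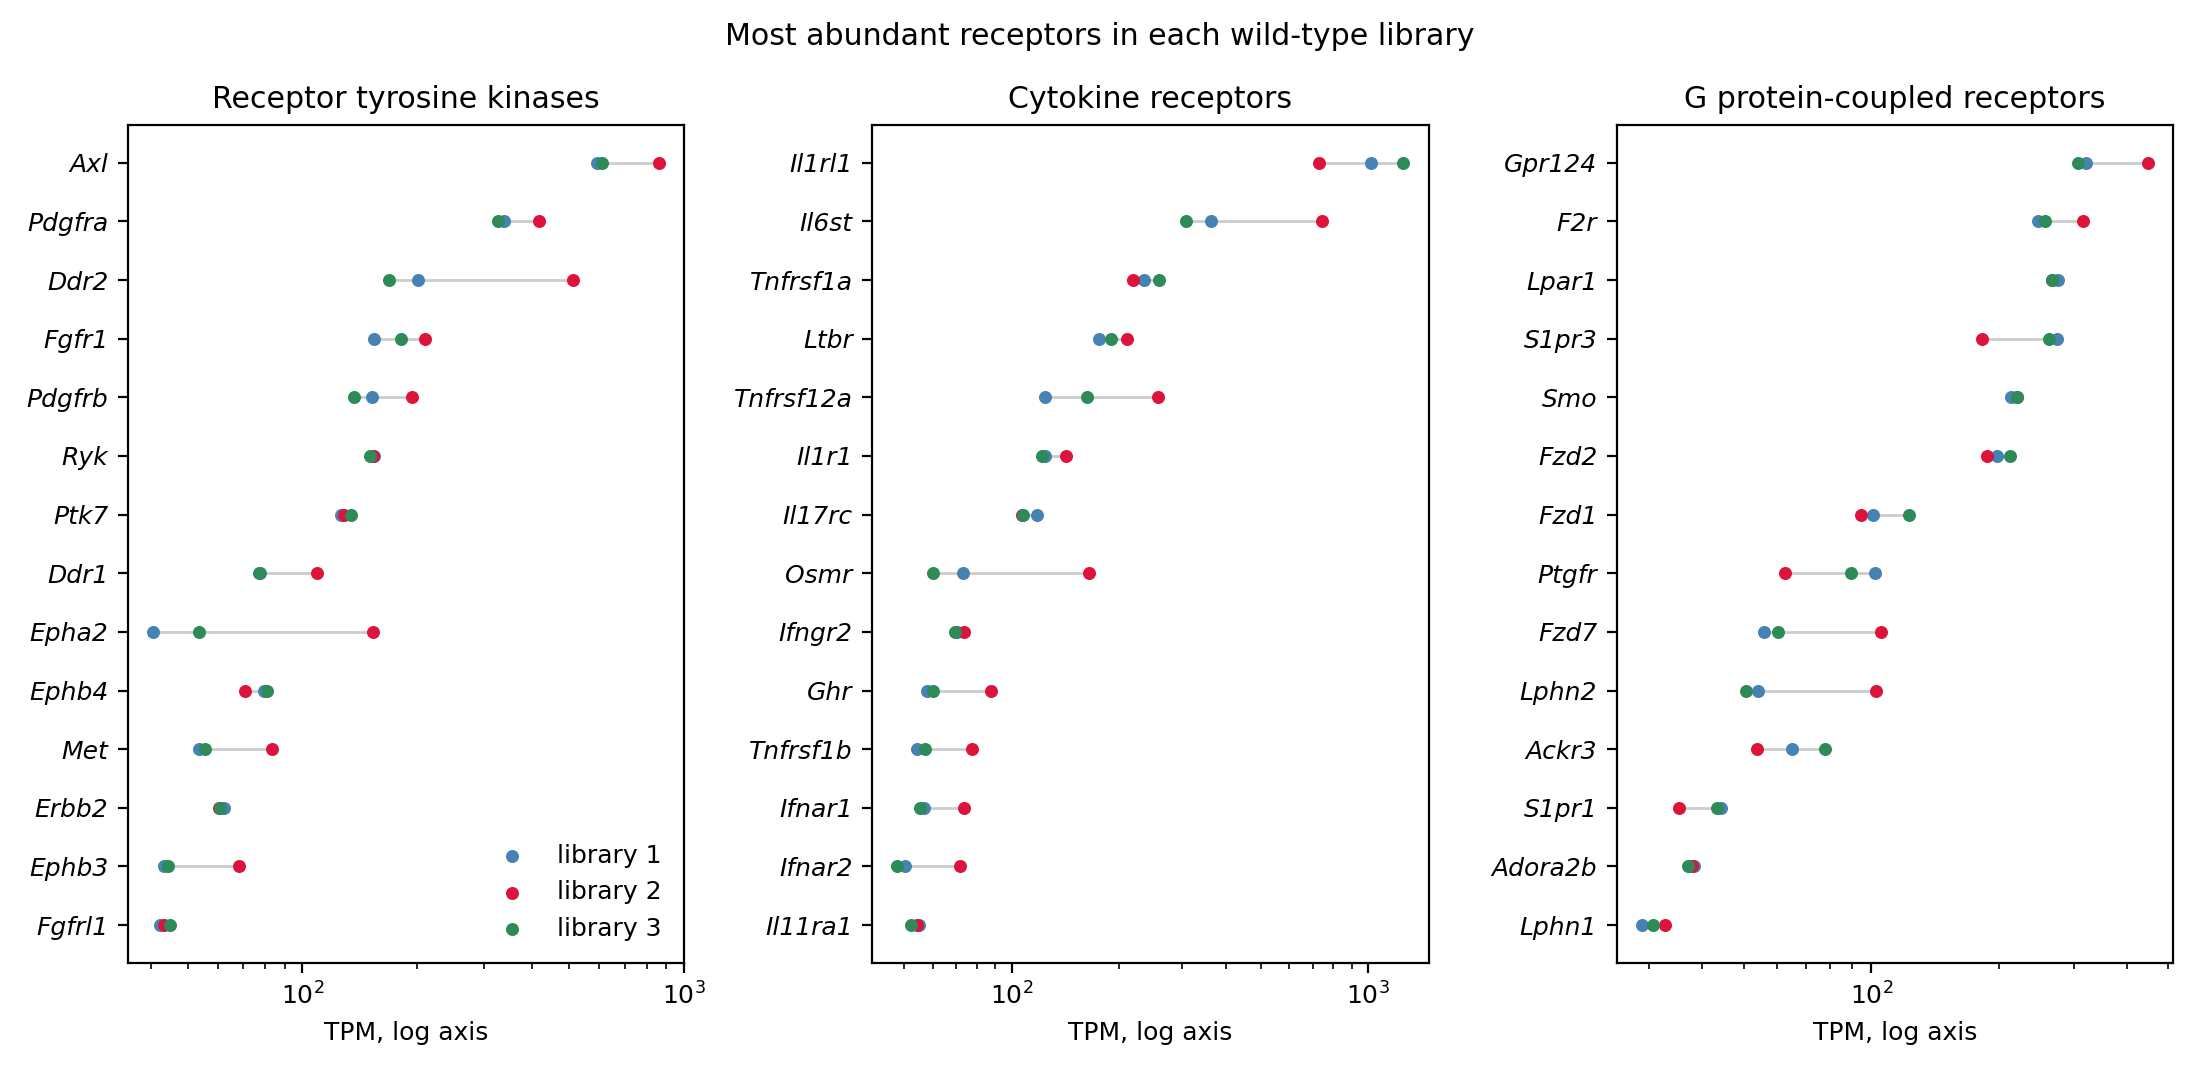
TPM on a log axis of the 14 most abundant receptor tyrosine kinases, cytokine receptors and G protein-coupled receptors, with 1 point for each wild-type library. Axl, Il1rl1 and Gpr124 lead their panels by mean level, and library 2 is the outlying point for Ddr2, Epha2, Il6st and Osmr.

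Cytokine receptors were detected for 25 of 39 genes (64.1%), against 50.2% of protein-coding genes. The leading member was Il1rl1, which encodes ST2, the receptor for interleukin-33, at 1023, 728 and 1258 TPM, a level above that of every receptor tyrosine kinase listed except Axl in library 2. Il6st, the gp130 chain shared by the interleukin-6 family, was at 363, 743 and 309.5 TPM, with library 2 the highest, and its partner Osmr at 72.9, 165 and 60.3 TPM. The specific chain Il6ra stayed at 11.8, 10.1 and 13.7 TPM. Tnfrsf1a, the main receptor for tumour necrosis factor, was at 235, 219 and 259 TPM. Type I interferon receptor chains Ifnar1 and Ifnar2 were at 56.8, 73.6 and 55.2 TPM and 50.3, 71.4 and 47.8 TPM. Of 12 haematopoietic receptors 2 were detected, with the growth hormone receptor Ghr the leading member at 57.9, 87.3 and 60.2 TPM.

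Among G protein-coupled receptors, 34 of 77 (44.2%) were detected, against 50.2% of all protein-coding genes. At the floor were 22 (28.6%), against 34.4%. Of 11 receptors for the lipids of serum 7 (63.6%) were detected, and of 11 in the Frizzled class 9 (81.8%). Lpar1, for lysophosphatidic acid, stood at 275, 267 and 266 TPM, and S1pr3, for sphingosine 1-phosphate, at 274, 182 and 262 TPM, ahead of S1pr1 at 44.2, 35.2 and 43.3 TPM and S1pr2 at 26, 26.6 and 27.6 TPM. The thrombin receptor F2r had 247, 315 and 256 TPM. Smo, which carries the Hedgehog signal, and Fzd2, a Wnt receptor, were at 213, 220.3 and 220.5 TPM and 198, 188 and 212 TPM. The adhesion receptor Gpr124 led the whole list at 321, 448 and 307 TPM. Chemokine receptors were nearly absent, with 1 of 12 detected, the scavenging receptor Ackr3 at 65, 53.9 and 78 TPM, and Cxcr4 at 0.141, 0 and 0.217 CPM.

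Nuclear receptors were detected for 24 of 48 genes (50%), again near the share of all protein-coding genes. The retinoic acid receptor Rarg led at 164, 211 and 181 TPM, followed by mean level by the orphan receptor Nr2f2 (COUP-TFII) at 94.3, 139.5 and 92.5 TPM and the thyroid hormone receptor Thra at 104, 85.8 and 102 TPM. The glucocorticoid receptor Nr3c1 was the main steroid receptor at 66.6, 123 and 66.8 TPM. The oestrogen receptors were low, with Esr1 at 3.27, 0.644 and 1.71 CPM and Esr2 at 0.0282, 0 and 0.0311 CPM. Pparg, the regulator of fat cells, had 0, 0 and 3 counts. Its relative Ppard, by contrast, stood at 35, 35.3 and 38.7 TPM.

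Of 117 growth factor and cytokine genes, 58 (49.6%) were detected, close to the 50.2% of all protein-coding genes. Csf1, the macrophage growth factor, led the growth factor class at 399.7, 1023 and 486 TPM, yet its receptor Csf1r was at 1.21, 0.779 and 1.12 CPM. Fgf7 (keratinocyte growth factor) had 418, 499.9 and 449 TPM, and Kitl, the ligand of Kit, 219, 399.7 and 245 TPM. Kit itself was near the floor, as given above. The chemokine Cxcl5 led the cytokines at 1495, 1407 and 1697 TPM, with Ccl2 at 437, 741 and 563 TPM, Ccl7 at 359, 503 and 423 TPM and the acute-phase protein Saa3 at 342, 538 and 326 TPM. The Wnt antagonist Sfrp1 was at 164, 177 and 153 TPM, while 6 of 27 genes of the Wnt group were detected and Wnt5a, the most abundant Wnt ligand, was at 7.78, 8.34 and 8.82 TPM. Of Notch and Hedgehog ligands, Jag1 was the sole detected member of 8, at 11.2, 46.3 and 12.5 CPM, over 2-fold above both others in library 2, as was Vegfa at 90.6, 227 and 112 CPM.

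General and mesenchymal transcription factors were broadly present, with 105 of 113 (92.9%) detected, against 50.2% of protein-coding genes. Ybx1, a cold-shock protein that binds RNA and DNA, led at 3766, 2242 and 3463 TPM, followed by the chromatin protein Hmga1 at 903, 1158 and 1007 TPM. Prrx1, a homeodomain factor of limb and connective-tissue mesenchyme, was the leading mesenchymal factor at 511, 452 and 504 TPM, and its paralogue Prrx2 stood at 152, 93.8 and 182 TPM. Osr1, Snai1 and Sox4 were at 197, 492 and 224 TPM, 159, 106 and 174 TPM and 118, 298 and 132 TPM. Twist1, a regulator of mesenchyme, was detected too, at 114, 120.5 and 135 TPM, and is named with Tbx15, at 104, 157 and 102 TPM, after its values were seen. AP-1 genes were led by Atf4 and Fosl2, at 162, 504 and 219 TPM and 217, 289 and 223 TPM. The effectors of the Hippo pathway, Wwtr1 (TAZ) and Yap1, were at 111, 169 and 119 TPM and 75, 106 and 83.1 TPM, with Tead1 and Tead2 at 85, 136 and 74.4 TPM and 104, 97.3 and 94.1 TPM. Srf, the factor that couples actin to transcription, was at 91.3, 137 and 103 TPM. Of the 96 members with at least 5 CPM, 8 were over 2-fold above both other libraries in library 2 (against 3.68% of all genes) and 3 below, including Myc at 51.9, 285 and 70.7 CPM and Nfe2l1, a stress-responsive factor, at 393, 1179 and 410.3 CPM above, and Id1 at 54.2, 18.8 and 64.1 CPM below. After centring on length, 12 were above, now including Atf4, Osr1 and Sox4, and 2 below, no longer including Id1.

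Factors that set up other lineages were mostly silent. Of 96 lineage transcription factors, 9 (9.38%) were detected, against 50.2% of protein-coding genes, and 58 were at the floor, against 34.4%. The myogenic factors Myod1, Myf5 and Myog had 0 counts. Sox2 had 1, 0 and 0 counts and Nanog 0.282, 0.237 and 0.311 CPM. Pluripotency, neural, hepatic and pancreatic, epithelial, fat, skeletal-muscle and germ-line roles had 0 detected members each. The detected members were Sox9, Mitf, Ebf1, Gata4, Nkx2-5, Gata2, Gata6, Fli1 and Sox5. Sox9, known for cartilage, was by far the most abundant at 90.1, 99.6 and 118 TPM, followed by Mitf at 25, 62.5 and 25.5 TPM, Ebf1 at 28.2, 49.5 and 28.6 TPM and Gata4 at 19.3, 42.2 and 20.2 TPM. Some factors known from the same lineages were at or near the floor. The bone factor Sp7 was at 0.0845, 0 and 0.0932 CPM beside Sox9, Sox10 at 0.0282, 0.0339 and 0 CPM beside Mitf and Tbx5 at 0.0845, 0 and 0 CPM beside Gata4 and Nkx2-5. Sox5, by contrast, was detected with Sox9 in the cartilage and bone role, both at 5 CPM or more in each library. Of the 8 members of that role, 4 were at the floor. The heart genes Gata4, Gata6 and Nkx2-5 were detected in each library, Nkx2-5 at 8.19, 6.3 and 10.1 CPM. The endothelial role of this list also held Tie1, a receptor and not a transcription factor, at 0, 0 and 0.124 CPM.

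Of 160 markers of other cell types, 19 (11.9%) were detected, against 50.2% of protein-coding genes. At the floor were 73 (45.6%), against 34.4%, and the remaining 68 lay between the floor and detection. Without library 2, 23 were detected. Summed over the list, the level was 1641, 1439 and 1760 TPM, of which Spp1, listed for osteoblasts and itself a matrix gene of these cells, made up most. The other abundant members are likewise known from fibroblasts, namely Acta2, Pdgfrb at 152, 194 and 137 TPM and the lipase Lpl at 61.1, 130.0 and 55.5 TPM. Defining markers of epithelium were near 0, with Epcam at 0, 0 and 0 counts and Cdh1 at 0.113, 0.0339 and 0.311 CPM, and so were those of endothelium, with Pecam1 at 0.282, 0.203 and 0.155 CPM and Cdh5 at 0.141, 0.169 and 0.0932 CPM. The pan-leukocyte gene Ptprc had 7, 6 and 8 counts, although Cd68 reached 2.56, 1.22 and 2.95 CPM. Of the hepatocyte markers, Alb had 1, 0 and 0 counts. The melanocyte genes Tyr and Tyrp1, for which Mitf is a known regulator, had 0 counts. Syn1 and Tubb3, known from neurons, reached 12.8, 11 and 11 CPM and 5.77, 3.15 and 7.55 CPM, while Rbfox3 had 1, 0 and 0 counts. Smooth-muscle markers were the best represented, with 6 of 10 detected, Tagln at 40.9, 43.8 and 38.6 TPM, and Myh11, which marks mature smooth muscle, at 0.197, 0.610 and 0.186 CPM. In bulk RNA, few cells of a type and little of its RNA in every cell cannot be told apart.

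NIH3T3 cells are known to lack the Ink4a-Arf locus, which encodes the inhibitors of cyclin-dependent kinases p16 and p15 and the p53 activator ARF. Cdkn2a (mm10 chr4:89274471-89294653) had 0, 0 and 1 counts, and its neighbour Cdkn2b had 0. Mtap, the next listed gene on one side (mm10 chr4:89137122-89181081), was abundant at 495, 469.9 and 485 CPM, and Dmrta1, on the other side, had 0 counts. Ifne, also in the region, reached 0.113, 0.136 and 0 CPM. Trp53 itself was present at 148, 107 and 186 CPM, Mdm2 at 109, 136 and 135 CPM and the p53 target Cdkn1a (p21) at 227, 143 and 265 CPM. The kinase Cdk4, the enzyme that p16 inhibits, was at 511, 377 and 535 TPM and its cyclin partners Ccnd1 and Ccnd2 at 206, 169 and 247 TPM and 104, 291 and 106 TPM. The catalytic telomerase gene Tert was at 0.704, 0.237 and 0.186 CPM.

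Of the Ras genes, Nras was at 80.8, 128 and 83.2 TPM and Hras at 39.9, 34.5 and 41 TPM, the former higher in every library. Nus1, which encodes the Nogo-B receptor, had 209, 188 and 240.4 CPM in these wild-type cells, and its enzyme partner Dhdds 44.1, 24.3 and 42.3 CPM. Of the X-linked genes with a Y-linked copy, Ddx3x was at 526, 837 and 569 CPM, Eif2s3x at 266, 269.9 and 286 CPM, Kdm5c at 178, 223 and 169 CPM and Kdm6a at 28.3, 42.8 and 28.3 CPM. The Y-linked copies were all near or under 1 CPM, with Ddx3y at 1.07, 1.32 and 0.963 CPM, Eif2s3y at 0.760, 0.373 and 0.621 CPM, Kdm5d at 0.620, 0.373 and 0.559 CPM and Uty at 0.253, 0.441 and 0.0621 CPM. Since these copies resemble each other, such low counts can include reads of the X-linked genes. Xist, the RNA of the inactive X, was at 0.141, 0.102 and 0.373 CPM, and Tsix had 0 counts. Of 30 imprinted genes matched, 18 (60%) were detected, against 50.2% of protein-coding genes. Dlk1, an inhibitor of fat-cell differentiation, led the paternally expressed ones at 383, 269.9 and 490.0 TPM, and the neighbours H19 and Igf2 were at 21.8, 12.7 and 19.2 CPM and 41.5, 74.3 and 41.8 CPM.

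In library 2, 369 genes were over 2-fold above both others and 552 over 2-fold below. By the same rule library 1 was apart for 0 genes in either direction, and library 3 was above for 0 and below for 5. Calls also followed transcript length. Among the 2496 shortest genes, up to 3059 exonic bases, 12.4% were lower in library 2 and 2.60% higher, while among the 2495 longest, from 7253 bases, 1.24% were lower and 4.93% higher. Spearman's correlation across 9984 genes between exonic length and the log2 ratio to the other libraries was 0.37 for library 2, -0.26 for library 1 and -0.39 for library 3, a description in which genes are not independent replicates. The share of counts from mitochondrial genes was 0.651% in library 2, against 1.41% in library 1 and 1.23% in library 3. The part of RNA quality or culture in these differences was not tested.

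**Figure D4:**
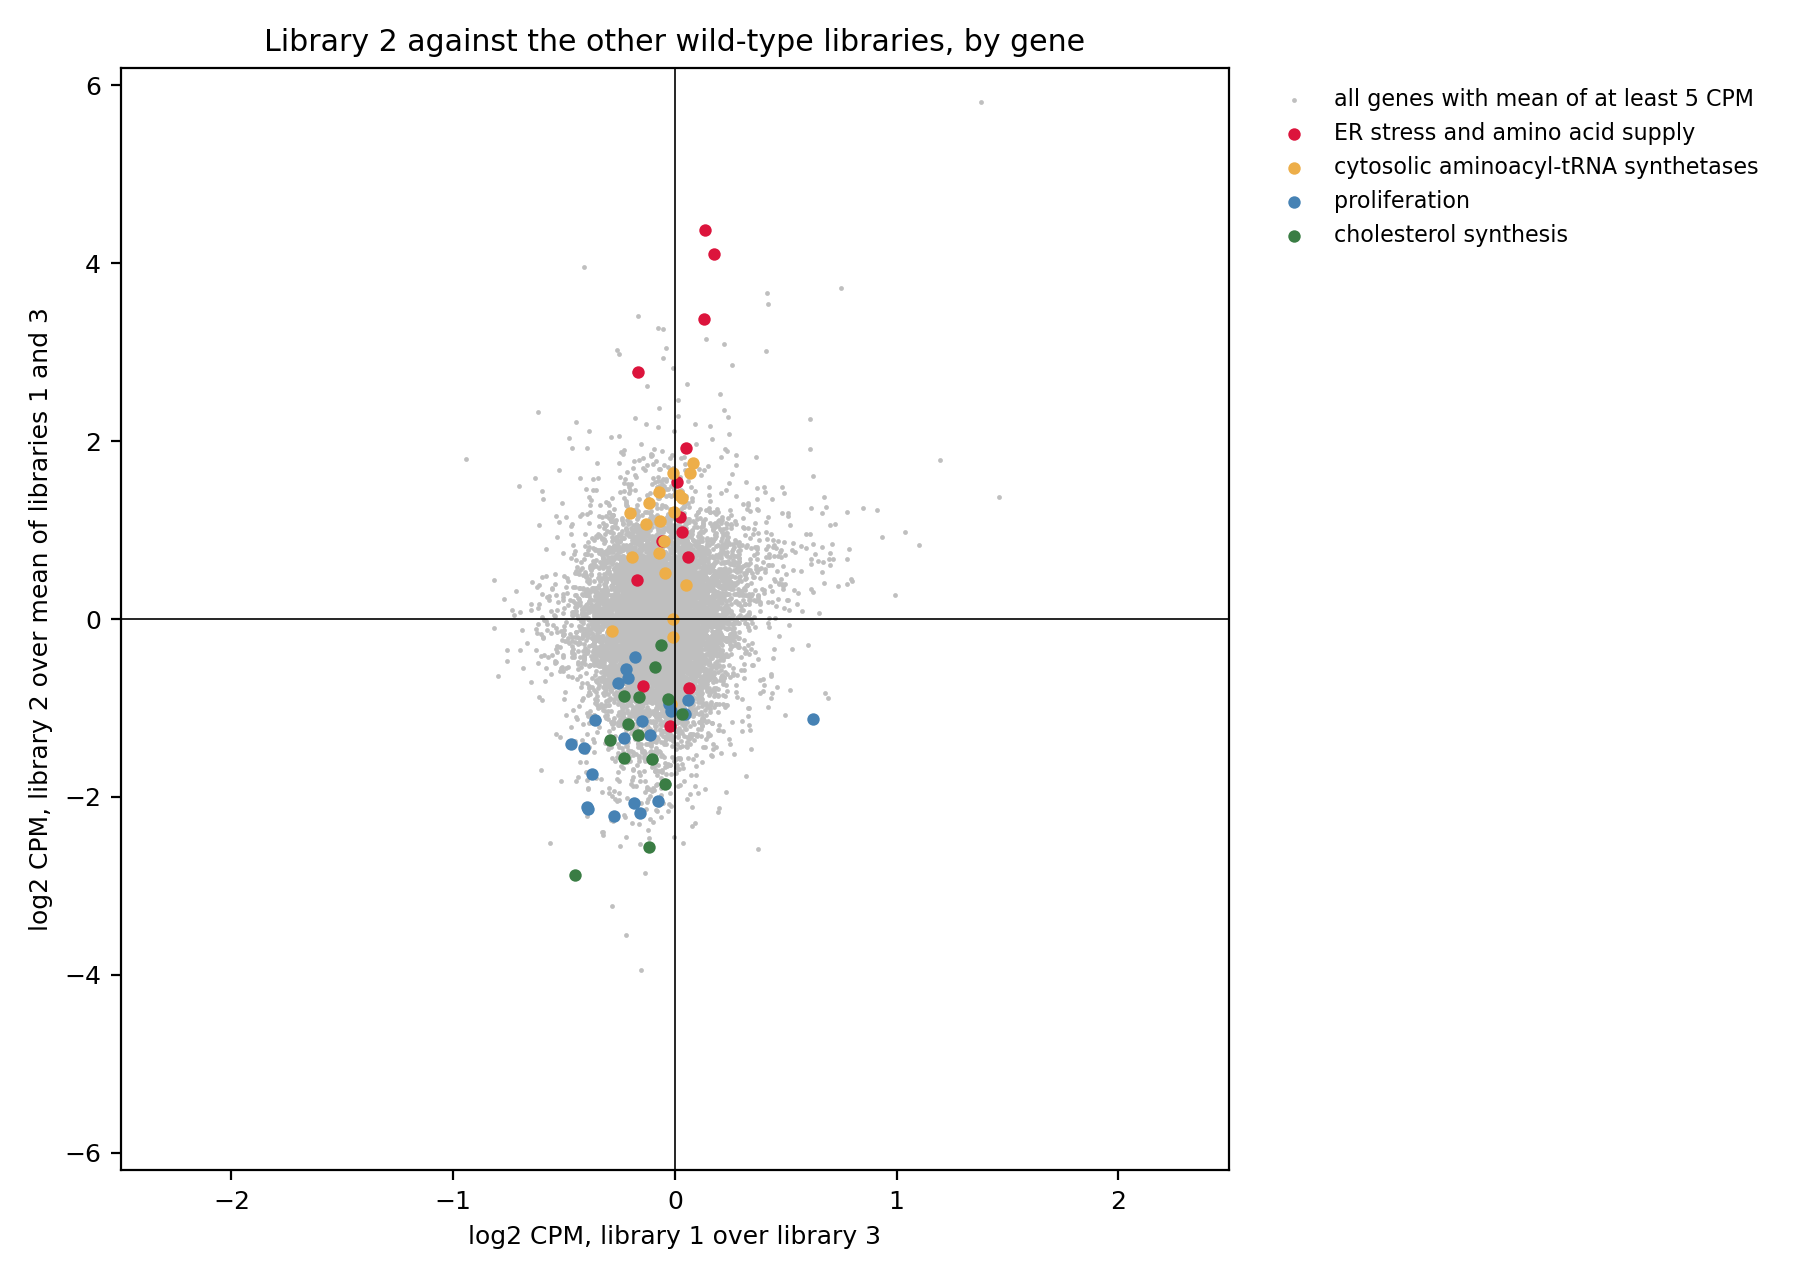
Each point is a gene with a mean of at least 5 CPM, placed by the log2 ratio of library 1 over library 3 (x axis) and of library 2 over the mean of libraries 1 and 3 (y axis). The spread is far wider along the y axis, and genes of endoplasmic reticulum stress and amino acid supply lie mostly above 0, those of proliferation and cholesterol synthesis below.

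The genes furthest above both other libraries in library 2 were led by Car6, a carbonic anhydrase, at 1.3, 50.6 and 0.497 CPM. Next came Trib3, a pseudokinase of the stress response, at 8.03, 159 and 7.3 CPM and Slc7a11, the cystine importer, at 5.1, 82.5 and 4.5 CPM. P2rx3, a channel opened by ATP, stood at 7.21, 80.2 and 5.4 CPM, Napb at 5.94, 66.8 and 6.68 CPM, and Chac1, which degrades glutathione, at 7.97, 79.1 and 7.27 CPM. In all of these library 2 was about 10-fold or more above the nearer of the others, and libraries 1 and 3 lay close together except for Car6. Aldh1l2, a mitochondrial folate enzyme, was at 56, 549 and 58.1 CPM, ranking 3991, 234 and 4020 among all genes by CPM. Gadd45a, a growth-arrest gene, was at 6.2, 61.3 and 6.52 CPM, the glycine transporter Slc6a9 at 15.2, 129 and 13.8 CPM and Cdsn at 33.7, 267 and 28.9 CPM.

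Trib3, Slc7a11 and Chac1 belong to the response to amino acid shortage and endoplasmic reticulum stress. In that response, kinases that phosphorylate the initiation factor eIF2-alpha slow translation in general and raise that of the factor ATF4, which pairs with C/EBP proteins on a composite DNA motif. In the list for this response, 7 of 14 genes were over 2-fold above both other libraries in library 2, against 3.68% of all genes, and 1 was below. Their median log2 ratio was 1.06 and that of all genes -0.02. Centred on genes of like length, 8 were above and 0 below. Besides Trib3, Slc7a11 and Chac1, the higher members were Ddit3 (CHOP) at 18.6, 136 and 20.9 CPM, Asns, which makes asparagine, at 140.5, 524 and 136 CPM, Herpud1 at 27.2, 78.8 and 27 CPM and Sesn2 at 55.7, 122 and 54.8 CPM. Phgdh, Psat1 and Hspa5 were highest in library 2 without reaching 2-fold, at 232, 453 and 227 CPM, 417, 661 and 400.1 CPM and 1004, 1889 and 1046 CPM, and Phgdh passed it after centring.

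A further list of stress kinases and factors covers the steps around ATF4 and, like those of synthetases, transporters, folate enzymes and chaperones, was chosen after values were seen. Its 4 eIF2-alpha kinases were not over 2-fold apart, Eif2ak4 (GCN2) at 116, 148 and 120.0 CPM and Eif2ak3 (PERK) at 25.5, 17.6 and 31.6 CPM. Of 8 transcription factors 5, against 3.68% of all genes, were over 2-fold above both other libraries. These were Atf3 at 5.27, 47.1 and 6.3 CPM, Nupr1 at 4.67, 23.4 and 6.12 CPM, Cebpg at 56.4, 229 and 66.1 CPM, Atf5 at 77.1, 221 and 79.7 CPM and Ddit3. Atf4 itself was at 108, 283 and 145 CPM, 2.24 times the mean of the other libraries but under 2-fold above library 3, and it passed only after centring. Ppp1r15a (GADD34), the feedback phosphatase subunit, was at 20.9, 163 and 21.7 CPM and over 2-fold above both. Its constitutive relative Ppp1r15b was at 219, 417 and 246 CPM and did not reach that fold.

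The upstream sequence of some of these genes holds the letters of that composite motif. The motif was searched as TGATGNAAN on both strands in the RefSeq promoter windows (GRCm38.p6) from 250 bases before to 50 bases after each start. It was present in 4.50% of the 27025 genes with such a window, in 2.24% of the 7289 tested genes that have one and were not apart in library 2, and in 5 of the 14 genes of the stress list. The following stretches of 90 bases, all upstream of the start and written 5′ to 3′ along the gene, show it in capitals for genes over 2-fold above both other libraries in library 2. A match describes the letters only.
Slc7a11 (chr3:50443614-50443703, minus strand): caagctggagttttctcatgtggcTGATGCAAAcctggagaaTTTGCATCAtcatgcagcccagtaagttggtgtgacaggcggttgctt
Chac1 (chr2:119351007-119351096, plus strand): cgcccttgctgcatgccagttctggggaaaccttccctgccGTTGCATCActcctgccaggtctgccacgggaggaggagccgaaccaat
Atf3 (chr1:191183396-191183485, minus strand): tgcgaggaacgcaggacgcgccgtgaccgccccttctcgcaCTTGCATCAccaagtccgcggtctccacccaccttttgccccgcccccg
Asns (chr6:7693210-7693299, minus strand): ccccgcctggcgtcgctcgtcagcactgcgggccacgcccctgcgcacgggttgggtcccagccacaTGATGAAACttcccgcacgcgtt
Nupr1 (chr7:126625533-126625622, minus strand): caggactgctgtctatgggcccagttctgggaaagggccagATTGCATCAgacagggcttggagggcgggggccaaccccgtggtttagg
Aars (chr8:111033688-111033777, plus strand): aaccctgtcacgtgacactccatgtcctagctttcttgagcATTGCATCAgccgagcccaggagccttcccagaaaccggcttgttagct
Tars (chr15:11399659-11399748, minus strand): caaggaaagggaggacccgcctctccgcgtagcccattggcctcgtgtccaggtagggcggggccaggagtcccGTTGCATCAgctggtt
Slc7a11 carries the motif on both strands within this stretch, the other 6 genes on 1 strand each. The match lies 23 bases before the start site in Asns and 16 in Tars.

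Genes that load amino acids onto tRNA were counted by compartment, and the difference between compartments was not tested. Of 20 cytosolic aminoacyl-tRNA synthetases, 11 were over 2-fold above both other libraries in library 2 and 0 below. After centring on length the count above was again 11. Of all genes, 3.68% were above, and 3.97% after centring. Of 17 mitochondrial synthetases, 0 were apart in either direction, against 9.20% of all genes, too few members to tell from that share. With no fold required, 13 of the 17 lay above both other libraries and 3 below. Of all 10014 genes tested, 4411 lay above both and 4632 below. Eprs, for glutamate and proline, stood at 334, 1094 and 315 CPM, Yars at 158, 495 and 159 CPM, Lars at 152, 466 and 145 CPM and Aars, one of the genes printed above, at 369, 962 and 364 CPM. Not every cytosolic member followed, since Kars, whose product also serves mitochondria, was even at 262, 263 and 264 CPM and Qars was lowest in library 2 at 123, 63.9 and 125 CPM. Lars2, the mitochondrial synthetase with the most counts, was at 925, 1331 and 484 CPM, and Iars2 at 105, 124 and 119 CPM. The order of the libraries for Lars2 was that of Yam1, and whether its counts include reads of other sequence was not tested.

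Amino acid transporters went along with the synthetases. Over 2-fold above both other libraries were 9 of 16 members, against 3.68% of all genes, and 0 were over 2-fold below. After centring on length 8 were above and 0 below. With no fold required, 12 lay above both and 3 below. The cationic transporter Slc7a1 was at 96.9, 593 and 93.4 CPM. Slc7a5 and Slc3a2, the light and heavy chains of the LAT1 exchanger, were at 117, 754 and 128 CPM and 112, 436 and 119.8 CPM, and the glutamine transporter Slc1a5 at 75.8, 305 and 89.9 CPM. The system A transporter Slc38a2 was not apart, at 877, 804 and 872 CPM. In serine and folate metabolism, 3 of 13 members were over 2-fold above both other libraries and 2 were over 2-fold below. The higher ones were Aldh1l2, Mthfd2 at 56.8, 197 and 62 CPM and Psph, the last enzyme of serine synthesis, at 13.9, 51.5 and 15 CPM. The lower ones included Tyms, which makes thymidylate and is also on the proliferation list, at 49.1, 23.1 and 47.5 CPM. After centring 5 were higher and 2 lower.

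Chaperones of the endoplasmic reticulum were split. Of 17, 1 was over 2-fold above both other libraries and 5 were over 2-fold below. Hspa5 (BiP) was highest in library 2, as given above, but Calr, a calcium-binding chaperone, was at 1821, 659 and 1961 CPM, Pdia6 at 359, 159 and 409.7 CPM, Creld2 at 38.2, 15.3 and 44.3 CPM, Manf at 123, 56.2 and 134 CPM and Sdf2l1 at 31.7, 13.9 and 32.3 CPM, all over 2-fold lower there. After centring on length, 3 chaperones were below and 1 above, and Creld2 and Sdf2l1 were no longer apart. Of all genes tested, 9.20% were apart in library 2 in either direction. The p53 target list had 0 of 10 members apart and the interferon response 0 of 4, too few members to tell from that share. Heat shock genes had 2 of 6 over 2-fold below and 0 over 2-fold above.

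**Figure D5:**
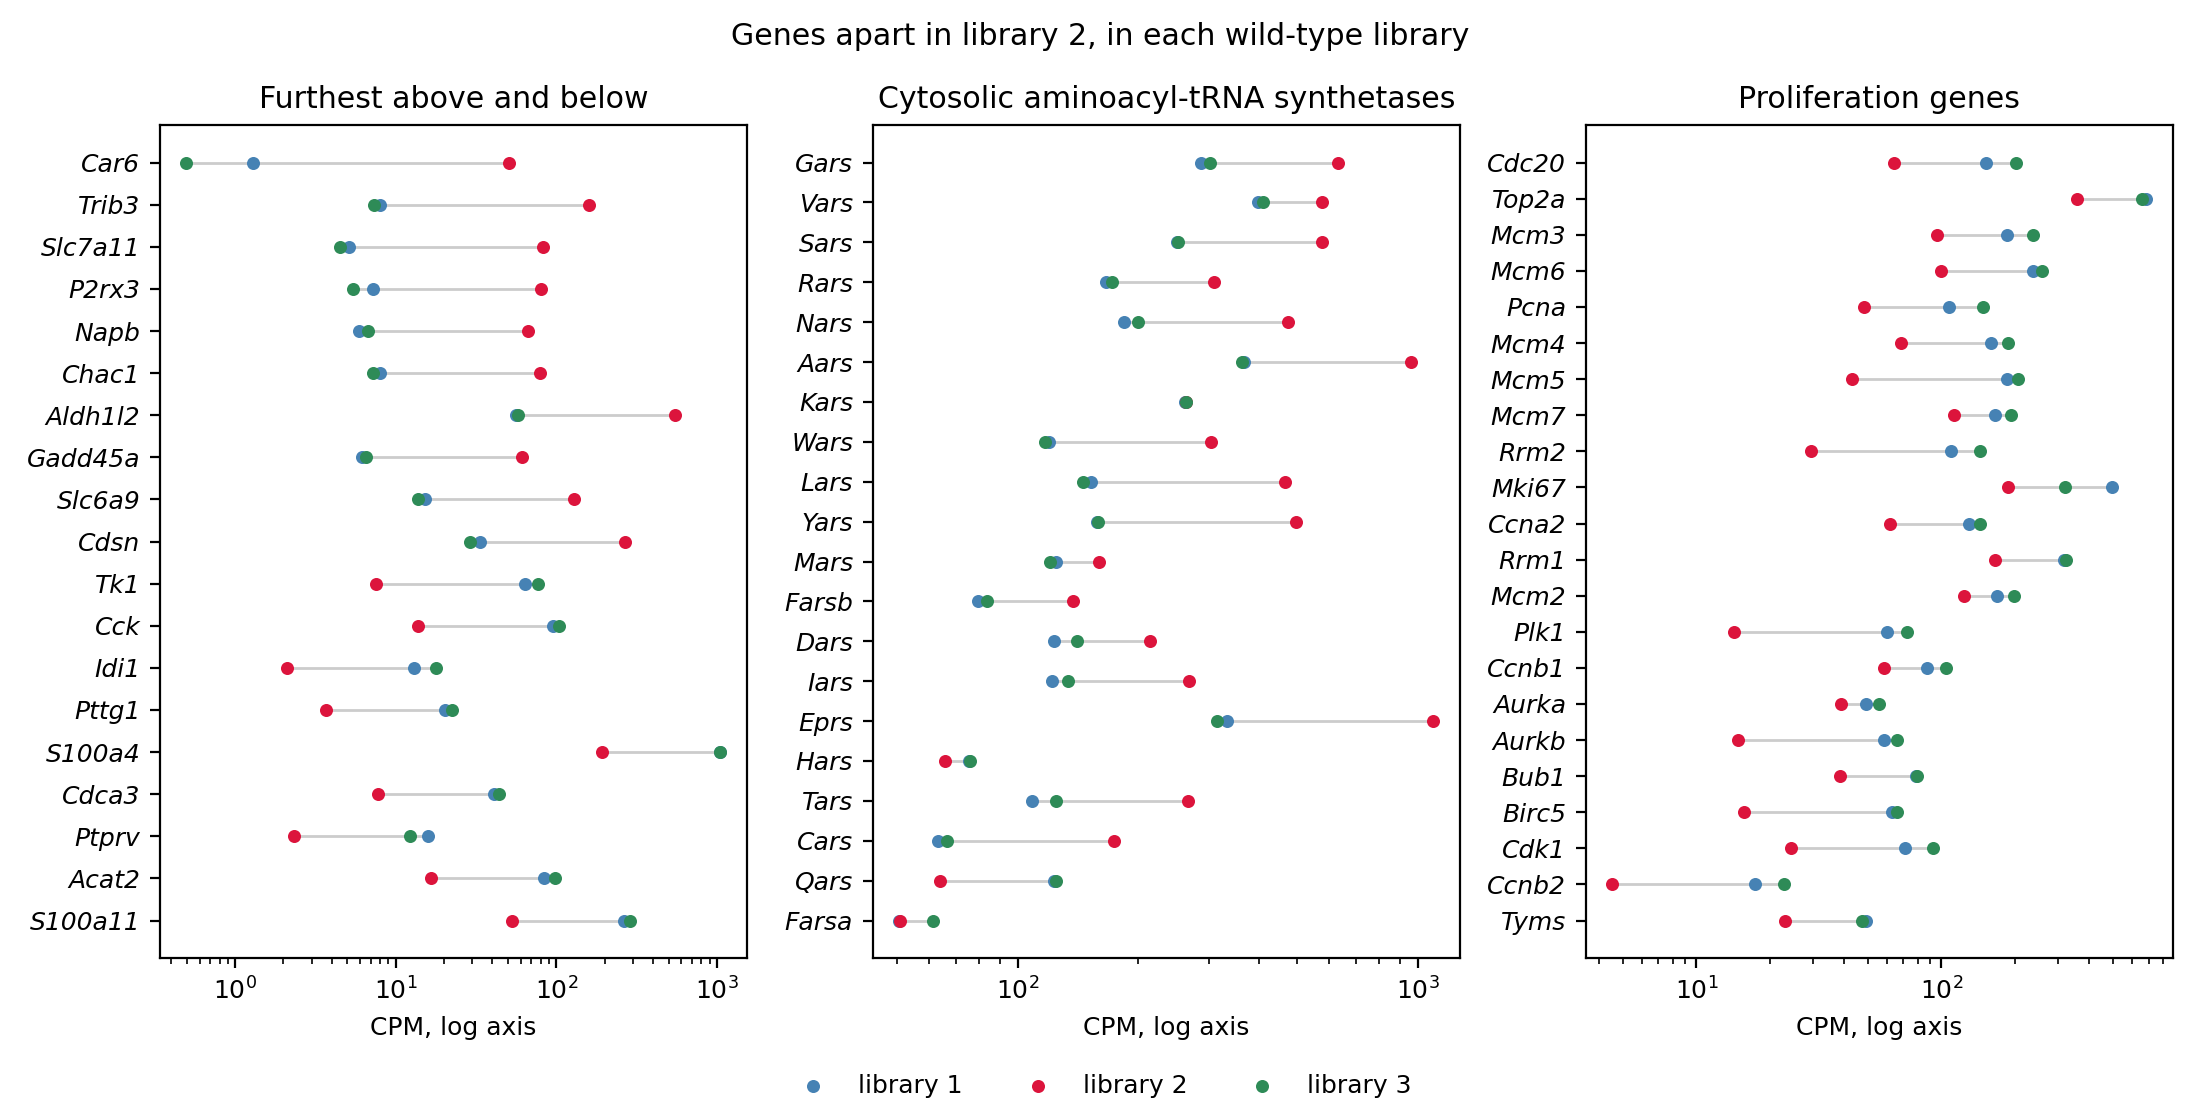
CPM on a log axis in each wild-type library of the 10 genes furthest above and 9 of those furthest below both others in library 2 (left), of the cytosolic aminoacyl-tRNA synthetases (middle) and of the proliferation genes (right), with 1 point per library. Library 2 is the highest point for 16 of the 20 synthetases and the lowest for all 22 proliferation genes.

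The proliferation genes were lower in library 2. Of 22, 14 were over 2-fold below both other libraries, against 5.51% of all genes, 0 were above, and 14 were below after centring on length. Their median log2 ratio was -1.23. Plk1, a mitotic kinase, was at 59.8, 14.3 and 72.3 CPM, the replication helicase subunit Mcm5 at 185, 43.2 and 206 CPM, the mitotic cyclin Ccnb2 at 17.3, 4.54 and 22.7 CPM and Rrm2, a subunit of ribonucleotide reductase, at 109, 29.2 and 144 CPM. Genes whose level was less far apart included Aurka at 49, 38.9 and 55.5 CPM and Mcm2 at 169, 124 and 197 CPM. Among the 10 genes furthest below, Tk1 (thymidine kinase) led at 63.4, 7.49 and 77.1 CPM, and Pttg1 (securin) at 20.2, 3.69 and 22.5 CPM and Cdca3 at 40.7, 7.72 and 44.2 CPM belong to the cell cycle as well. Ccnd2, an early cyclin, went the other way at 276, 652 and 279.6 CPM, over 2-fold above both but not after centring. The cell cycle homology region, searched as TTTGAA on both strands, was in the promoter window of 8 of the 19 proliferation genes that have one, against 20.2% of all genes.

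Genes of cholesterol synthesis were also lower, with 9 of 14 members over 2-fold below both other libraries, against 5.51% of all genes. Above both were 0, and 8 were below after centring, against 3.78% of all genes. Idi1, which isomerizes isopentenyl diphosphate, was at 13, 2.1 and 17.8 CPM and Fdps, which makes farnesyl diphosphate, at 80.3, 22.6 and 83 CPM. Insig1, a sterol sensor of the pathway, was at 35.3, 15.2 and 43.2 CPM and lower in the same way. Acat2, which makes acetoacetyl-CoA for the pathway, was among the 10 genes furthest below at 84.2, 16.7 and 98.2 CPM. Stard4, a sterol carrier from a list chosen after values were seen, was also lower at 47.8, 12.8 and 55.5 CPM, whereas the cholesterol exporter Abca1 was highest in library 2 at 58.5, 92.5 and 42.3 CPM. A sterol regulatory element, searched as TCACNCCAC on both strands, is in the window of 1.44% of all genes. Of the 8 cholesterol synthesis genes matched to a window 1 holds it, too few of the list for a share, and it is shown in capitals for that gene, Hmgcs1, which stood at 115, 49.5 and 129 CPM and makes the precursor of mevalonate.
Hmgcs1 (chr13:119690173-119690262, plus strand): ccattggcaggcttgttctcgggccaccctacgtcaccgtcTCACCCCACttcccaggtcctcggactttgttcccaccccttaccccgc

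Short cytoskeletal and calcium-binding genes were also lower in library 2. Of all genes tested, 5.51% were over 2-fold below both other libraries, and 3.78% after centring on length. Of 11 tubulins, 9 were over 2-fold below both other libraries (7 after centring), among them Tubb4b at 265, 58.1 and 286 CPM, Tuba1a at 371, 93 and 354 CPM and Tubb5 at 2213, 900.4 and 2162 CPM. Of 6 S100 genes with at least 5 CPM, 5 were below (5 after centring), including S100a4 at 1050.2, 192 and 1053 CPM and S100a11 at 264, 53.1 and 287 CPM. The neuropeptide gene Cck at 95.2, 13.9 and 105 CPM and the phosphatase gene Ptprv at 15.8, 2.34 and 12.2 CPM were also among the 10 furthest below. Counts for families of short housekeeping genes changed when length was taken into account. Of 79 cytosolic ribosomal protein genes, with a median exonic length of 1781 bases, 77 were below both other libraries. Over 2-fold below were 20 of them, but 4 after centring. Of 71 nuclear genes of the respiratory chain, with a median of 1756 bases, 69 were below both. Over 2-fold below were 30 of these, but 11 after centring. The median log2 ratio of the ribosomal genes was -0.84 before centring and -0.44 after, and of the respiratory genes -0.93 and -0.40. That of all genes was -0.0004 after centring. Tubulins had a median length of 2266 bases and proliferation genes 4038 bases, against 4786 for all genes tested. Of 14 genes of hypoxia and glycolysis, 3 were over 2-fold lower in library 2, Gapdh at 2427, 939.8 and 2267 CPM, Pkm at 2749.6, 1189.7 and 2881 CPM and Ldha at 1888, 849 and 1947 CPM. Over 2-fold higher was 1, Vegfa.

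Beside these groups, the lists of fibroblast identity were as follows. Of 32 fibroblast markers with at least 5 CPM, 3 were over 2-fold above both other libraries and 5 over 2-fold below. Of all genes, 3.68% and 5.51% were. By the same rule the counts were 1 and 1 of 21 collagen chains, 0 and 0 of 24 cytokine receptors, and 2 and 0 of 25 integrins and matrix receptors. After centring on length the counts were 2 and 2 for fibroblast markers, 0 and 1 for collagen chains, 0 and 0 for cytokine receptors and 1 and 0 for integrins and matrix receptors. With no fold required, 12 fibroblast markers lay above both and 19 below. Such counts were 9 and 11 for collagen chains, 13 and 8 for cytokine receptors and 15 and 8 for integrins and matrix receptors. Of 6 nuclear noncoding RNAs 2 were over 2-fold above both other libraries and 0 were over 2-fold below. The 2 were Snhg1 at 25.7, 74.8 and 33.4 CPM and Malat1 at 873, 2170.5 and 381 CPM, although Malat1 also differed over 2-fold between libraries 1 and 3. Neat1 was at 239.9, 342 and 327 CPM and not apart.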

How the data were processed

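The deposited table holds counts per gene made by the authors. Per the submitters' processing notes, HISAT2 2.0.5, featureCounts 1.5.0-p3 and DESeq2 were used with build mm10. The annotation release, strand setting and filters were not stated in the labels used here, so overlapping, antisense and near-identical genes are uncertain. From the counts of the 3 wild-type libraries, CPM was computed on each library's total and TPM on the union of exon bases, with Python 3.11.15, pandas 2.3.3, numpy 2.4.6 and scipy 1.17.1. Gene IDs matched the annotation for 97.8% of genes. A gene was apart in a library when over 2-fold above or below both others, among genes with a mean of at least 5 CPM. This rule was checked on simulated counts with an equal spread in the 3 libraries and no trend with length. That check therefore does not cover the wider spread and the length trend of library 2. With 1 group there was no comparison between groups and no test. TMM and RLE scaling (edgeR 4.0.16 in R 4.3.3), other thresholds, thinning and leaving out libraries were tried as alternatives.

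Named genes were up to 5 of the most abundant members of each list role by mean TPM, silent members, named pairs, all members of the Ink4a-Arf, sex chromosome and Ras roles, the 15 most abundant protein-coding genes, and the 10 genes furthest above and the 10 furthest below in library 2 with a mean of at least 10 CPM. Lists and rule were chosen with earlier results of these data known. The 7 lists around stress, amino acids, sterols and p53, the gene families and the centring on length were chosen after values were seen, as were Yam1, Twist1, Tbx15, Ly6a, Epcam, Ptprc, Rbfox3, Myh11, Myf5 and Snhg1 and the members of the library 2 groups that the text names beyond those 20 genes. Some genes that this rule names are not reported here.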

Additional observations from a re-analysis of the deposited data

How the results depend on the processing

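Counts of genes apart in library 2 depended on the fold required. The 369 genes above both other libraries were 1239 at 1.5-fold, 38 at 4-fold and 872 with no filter but 10 counts in all, and the 552 below were 1513, 46 and 1261. Other scaling, thinning and protein-coding genes alone kept both counts within 1.5 times. Counts of members at the floor depended on where the floor was set. With the floor at 0 counts in all, they were 2 for matrix glycoproteins and proteoglycans, 10 for receptor tyrosine kinases, 1 for TGF-beta superfamily receptors, 0 for integrins and matrix receptors, 7 for nuclear receptors, 43 for markers of other cell types, 2 for cytoskeleton and caveolae, 3 for line genotype checks, 5 for imprinted genes and 1 for signs of RNA and library quality. With the floor at a mean under 0.1 CPM, they were 3 for fibroblast markers, 11 for collagen chains, 12 for matrix glycoproteins and proteoglycans, 4 for integrins and matrix receptors and 6 for signs of RNA and library quality. Of markers of other cell types, 8 were detected at 5 CPM in each library. Each follows from the threshold moved. Without library 2, 18 of 357 named genes with at least 5 CPM moved by over 1.5 times in mean level. TPM depends on the gene model. With the longest transcript as length, 18 of 523 named genes had a mean TPM over 1.5 times as high, and the median ratio was 0.882. No paired analysis was possible because there is 1 group. Low genes are limited by depth, with 3 counts corresponding to 0.0845, 0.102 and 0.0932 CPM in libraries 1, 2 and 3.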
